A study of Mus musculus with 6 samples.

Results

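The genes described here are 10 genes of the antioxidant pathway of NRF2 and glutathione, taken by symbol from the 23284 genes listed for each library. They are Nfe2l2, Keap1, Nqo1, Hmox1, Gclc, Gclm, Srxn1, Txnrd1, Gpx4 and Gsr. RNA came from C1498 cells, a murine acute myeloid leukemia (AML) line, which carried EGFP from a retroviral vector and had been grown from a single selected clone. The cells had been injected into C57BL/6 J mice, young adult females by the general methods, and cells positive for GFP and CD49b were sorted from the marrow of the leg bones and pelvis at day 21. One group of 3 mice had received cytarabine, a nucleoside analog that blocks DNA synthesis. The methods give its doses and days for imaging and survival experiments, and do not repeat them for the sorted mice. The control group was 3 mice that the sources describe both as PBS-treated and as untreated. With 1 mouse per library, the libraries are called cytarabine 1, 2 and 3 and control 1, 2 and 3. The question of the comparison was how leukemia cells that remained after cytarabine differed from those of control mice.

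NRF2, encoded by Nfe2l2, is a transcription factor that is held at a low level by KEAP1, an adaptor that hands it to a ubiquitin ligase for destruction. Oxidants and electrophiles modify KEAP1, NRF2 then accumulates, pairs with small MAF proteins and binds antioxidant response elements near its target genes. Its targets build glutathione, recycle glutathione and thioredoxin, and detoxify quinones and heme, so their mRNA levels are widely used as a readout of NRF2 activity, while NRF2 itself is regulated mainly as a protein. In leukemia, this pathway is known for protecting cells from the oxidants that some drugs produce.

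Values are FPKM, in which fragments are divided by transcript length and by sequencing depth, so that levels of different genes can be compared per length. The steps between low values gave an inferred depth of between 11500000 and 18800000 reads per library. Colon, heart and muscle transcripts were present in unequal amounts. The summed level of 15 colon epithelium markers was 4969, 5363 and 2358 FPKM in cytarabine 2, cytarabine 3 and control 1. It was 382 FPKM in cytarabine 1 and 30.3 and 28.6 FPKM in control 2 and 3. The first 3 of these libraries are called high colon below and the other 3 low colon, with cytarabine 1 between the extremes. The 10 heart markers were highest in control 1, at 2540 FPKM, and lowest in cytarabine 1, at 7.52 FPKM. The summed level of 12 neutrophil markers was between 254 and 1635 FPKM with cytarabine and between 1503 and 2118 FPKM in controls, and for 6 of the 12 all treated libraries lay below all controls. Of the markers of the sorted cells, Itga2, which encodes CD49b, was at 8.11, 7.79 and 7.88 FPKM in cytarabine 1 to 3. In control 1 to 3 it was higher, at 10.6, 13.3 and 12.8 FPKM. The T cell receptor component Cd3g was between 449 and 652 FPKM. Of 11 sort and lineage markers, 3 were above and 3 below all controls in every treated library. Groups did not overlap for 23.8% of all genes tested. The myeloid genes Itgam and Csf3r were at most 4.76 and 3.83 FPKM, and Kit and Cebpa at most 1.59 and 2.18 FPKM. Spi1, listed as Sfpi1, reached 7.72 FPKM in control 2, and Cd34 reached 7.72 FPKM in cytarabine 3. These levels were far below that of Cd3g, and the lineage of the cells was not tested. In sorted bulk RNA of this kind, fewer cells of a type and less RNA per cell cannot be told apart.

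Promoter sequences from RefSeq (GRCm38.p6) were listed for 7 of the 10 genes, all but Hmox1, Gclc and Gsr. The stretches around a matching motif are shown because the pathway is defined by a binding site. The antioxidant response element was searched as TGACNNNGC on both strands of the 250 bases before each start. It was found for 3 of the 7 genes, and for 11.5% of all 27025 genes with a listed promoter. Capitals mark the match, which lies on the strand opposite to the gene for Gclm and Txnrd1.
Nfe2l2 (chr2:75704883-75704913, minus strand): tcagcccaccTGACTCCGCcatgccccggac
Gclm (chr3:122245411-122245443, plus strand): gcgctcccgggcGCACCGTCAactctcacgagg
Txnrd1 (chr10:82859102-82859134, plus strand): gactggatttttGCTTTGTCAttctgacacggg
The matches end 232, 126 and 84 bases before the start, that of Txnrd1 being 1 of 3 listed starts. Srxn1, the gene whose level differed most between libraries, held no match to TGACNNNGC in this window. It held the letters TGAGTCA, bound by AP-1 factors and part of many antioxidant response elements, 2 times, ending 96 and 39 bases before the start. This motif was found for 5.16% of all genes with a listed promoter, and no other of the 7 genes held it. Letters that match are not evidence of binding in these cells.
Srxn1 (chr2:152105410-152105497, plus strand): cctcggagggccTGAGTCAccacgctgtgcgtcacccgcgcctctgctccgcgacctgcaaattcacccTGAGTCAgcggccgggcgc

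The levels of the 10 genes fell into clear ranks that were similar with and without cytarabine. Gpx4 was the most abundant, with a mean of 220 FPKM over the 6 libraries, higher than that of 98.3% of all genes. Nfe2l2 followed at 76.6 FPKM and Txnrd1 at 75.1 FPKM, and their ranges over libraries overlapped. Gsr was at 41.5 FPKM and Keap1 at 25.02 FPKM, and neither range touched that of a neighbour. Gclc at 16.4 FPKM, Gclm at 15.5 FPKM and Hmox1 at 12.96 FPKM overlapped each other. Srxn1 at 3.23 FPKM and Nqo1 at 0.908 FPKM were the least abundant, and their ranges overlapped. Nqo1, the reductase most often used to report NRF2 activity, was scarce in libraries that held abundant Nfe2l2 mRNA. The 8 more abundant genes rested on about 181 to 4702 reads in each library. Nqo1 rested on about 4 to 38 reads and Srxn1 on about 4 to 295 reads.

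**Figure D1:**
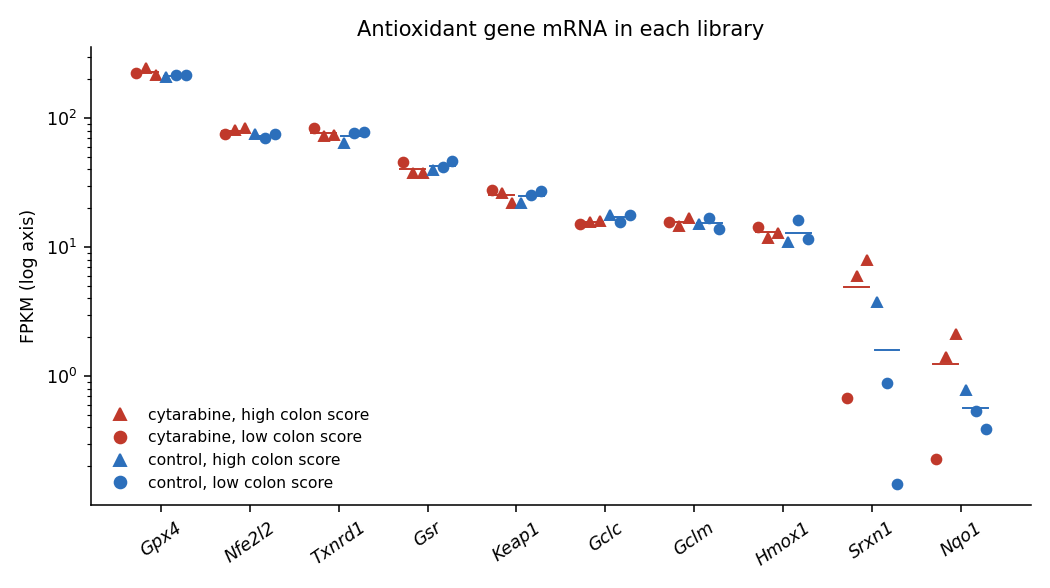
FPKM of the 10 genes (log axis) in each of the 6 libraries, in the order cytarabine 1 to 3 and control 1 to 3, with horizontal lines at the group means and triangles for the 3 libraries of high colon score. The 8 genes on the left stay within a narrow band in all libraries, while Srxn1 and Nqo1 are higher in the triangles.

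None of the 10 genes passed the test with cytarabine. Of the 9 that had a mean of at least 1 FPKM and were tested, 0 had an adjusted p under 0.05 from limma, where 0% of all 11703 genes tested did. At an unadjusted p under 0.05, 0 of the 9 were higher and 0 lower, against 7.60% and 9.81% of all genes tested, or 17.4% in either direction. The groups of libraries overlapped for each of the 9, whereas they did not overlap for 23.8% of all genes. The median log2 fold change was 0.042 for the 9 genes and -0.0015 for all genes, and the median of its size was 0.083 against 0.18. For 8 of the 9 genes the 95% interval from limma lay within 0.5 in either direction on the log2 scale, and Srxn1 was the exception. All fold changes from limma are on the scale of log2(FPKM + 1), which makes changes of scarce transcripts look smaller. Leaving out cytarabine 1, the treated library with the least colon transcript, gave 3 genes at an unadjusted p under 0.05, namely Nfe2l2, Nqo1 and Srxn1, and the share of all genes was then 34.8%. Both treated libraries that remained then were high colon libraries. The other 5 ways of leaving out 1 library gave 0.

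**Figure D2:**
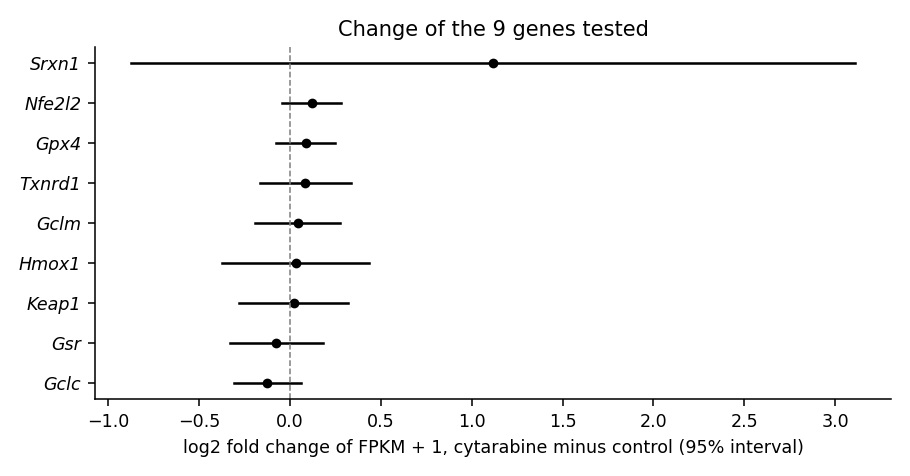
Log2 fold change of FPKM + 1, cytarabine minus control, for the 9 genes tested, with points for the estimate and lines for its 95% interval from limma. All 9 intervals include 0, and that of Srxn1, from -0.88 to 3.11, is the widest.

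Neither regulator passed the test. Nfe2l2, on chromosome 2 from 75675513 to 75704641 of GRCm38, had 75.3, 80.8 and 83.2 FPKM in the order cytarabine 1 to 3. In the order control 1 to 3 it had 74.9, 69.7 and 75.5 FPKM, and this order of libraries holds for all values given below. Cytarabine 2 and 3 lay above all controls, while cytarabine 1 lay just below control 3, so the groups overlapped. The mean was 79.8 ± 4.06 FPKM (SD, n = 3) against 73.3 ± 3.19 FPKM (SD, n = 3), and the log2 fold change was 0.12 (SE 0.066, 95% interval -0.042 to 0.28, limma adjusted p = 0.374). When all libraries were brought to the same total FPKM its groups no longer overlapped, and the adjusted p was 0.341 from limma.

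Keap1, on chromosome 9 from 21229730 to 21239361, was at 27.6, 26.2 and 21.8 FPKM after cytarabine against 21.9, 25.3 and 27.2 FPKM without it. The 2 ranges were nearly the same. The mean was 25.2 ± 3.01 FPKM (SD, n = 3) against 24.8 ± 2.72 FPKM (SD, n = 3), a log2 difference of 0.021 (SE 0.12, limma adjusted p = 0.931). The ratio of Keap1 to Nfe2l2 within each library, which no scaling of the library can move, was 0.367, 0.325 and 0.262 with cytarabine and 0.292, 0.364 and 0.361 in controls. It did not differ by more than the spread between mice (two-sided exact permutation p = 0.7, and 0.7 after Benjamini-Hochberg adjustment over 3 ratios). The smallest p that 3 mice against 3 allow is 0.1.

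Glutathione is made by glutamate-cysteine ligase, which has a catalytic subunit, GCLC, and a modifier subunit, GCLM. Gclc, on chromosome 9 from 77754535 to 77794485, was at 15.2, 15.6 and 16.1 FPKM in treated mice, while the control mice had 17.9, 15.8 and 17.8 FPKM. Control 2 lay between the cytarabine values and the other controls above them. The mean was 15.6 ± 0.428 FPKM (SD, n = 3) against 17.2 ± 1.20 FPKM (SD, n = 3), which is a log2 difference of -0.12 (SE 0.074, 95% interval -0.31 to 0.058, limma adjusted p = 0.394). Gclm, on chromosome 3 from 122245557 to 122270732, was at 15.7, 14.7 and 16.8 FPKM in the treated libraries, where controls gave 15.0, 16.9 and 13.9 FPKM. The groups were interleaved, and the log2 fold change was 0.042 (SE 0.095, limma adjusted p = 0.817). The ratio of the modifier to the catalytic subunit mRNA averaged 1.01 ± 0.0581 (SD, n = 3) in treated mice, against 0.896 ± 0.153 (SD, n = 3) in control mice. That difference was within the spread of the controls (two-sided exact permutation p = 0.4, and 0.6 after adjustment over 3 ratios).

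Glutathione is spent and renewed by the other members of this arm. Gpx4, the selenium-dependent peroxidase that reduces lipid peroxides in membranes, lies on chromosome 10 from 80047166 to 80056439. It was at 222, 244 and 214 FPKM after cytarabine against 208, 214 and 217 FPKM without it. Cytarabine 3 lay among the controls, so the groups overlapped, and reads of its pseudogene copies may add to its level. Its log2 fold change was 0.086 (SE 0.066, 95% interval -0.076 to 0.25, limma adjusted p = 0.481). Gsr, the reductase that turns oxidized glutathione back, lies on chromosome 8 from 33652523 to 33698163. It was at 45.7, 37.6 and 37.9 FPKM in treated mice, while the control mice had 39.6, 41.8 and 46.4 FPKM. Its 3 lowest values were those of the high colon libraries, cytarabine 2, cytarabine 3 and control 1, and its log2 fold change was -0.076 (SE 0.10, limma adjusted p = 0.689).

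Txnrd1, the cytosolic reductase that renews thioredoxin, lies on chromosome 10 from 82833951 to 82897712, in a region that also holds Eid3 on the same strand. It was at 83.9, 73.1 and 74.5 FPKM in the treated libraries, where controls gave 64.0, 76.3 and 78.4 FPKM. As with Gsr, the 3 high colon libraries held the 3 lowest values. Its log2 fold change was 0.083 (SE 0.10, limma adjusted p = 0.651). The ratio of Txnrd1 to Gsr, the thioredoxin against the glutathione reductase, was 1.84, 1.94 and 1.97 with cytarabine and 1.62, 1.83 and 1.69 in controls. Every cytarabine library was above every control, although cytarabine 1 and control 2 were close. The means were 1.91 ± 0.0696 (SD, n = 3) and 1.71 ± 0.106 (SD, n = 3), with a two-sided exact permutation p of 0.1, the smallest possible, and 0.3 after adjustment over 3 ratios. The log2 difference of this ratio was 0.12 to 0.21 over the 6 ways of leaving out 1 library.

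Hmox1, heme oxygenase, which breaks heme into biliverdin, iron and carbon monoxide, lies on chromosome 8 from 75093621 to 75100589. It was at 14.4, 11.8 and 12.9 FPKM after cytarabine against 10.9, 16.3 and 11.5 FPKM without it. The highest value was that of control 2 and the lowest that of control 1, so the controls enclosed the cytarabine libraries. The log2 fold change was 0.030 (SE 0.16, limma adjusted p = 0.925). Macrophages that take up red cells are rich in this enzyme. The summed level of 14 macrophage markers was 170 FPKM in control 2, and in the other libraries between 19.8 and 91.6 FPKM. In control 2 the complement genes C1qa, C1qb and C1qc were at 47.5, 35.3 and 47.3 FPKM, while the red pulp macrophage factor Spic was at 0.076 FPKM. Slc40a1, of the same list, was lowest in control 2, at 1.17 FPKM, and Vcam1, Axl and Mertk were not highest there. The macrophage sum was 25.4 FPKM in cytarabine 1, below the 91.6 and 89.3 FPKM of cytarabine 2 and 3, which had less Hmox1. The summed level of 9 erythroid markers was 315 FPKM in cytarabine 1, which had the next highest Hmox1, where no other library exceeded 74.2 FPKM. The part of these cells in the values of Hmox1 was not tested. With colon and heart marker scores as covariates, which leave 2 residual degrees of freedom per gene, the log2 fold change of Hmox1 was 0.63 at an unadjusted p of 0.0489, and its adjusted p was 0.999 from limma.

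Srxn1 and Nqo1 were the members that differed between libraries. Srxn1, sulfiredoxin, which repairs overoxidized peroxiredoxins, lies on chromosome 2 from 152105516 to 152111376. The treated libraries had 0.672, 6.004 and 7.94 FPKM and the controls 3.77, 0.880 and 0.146 FPKM. The highest value was 54.5 times the lowest, but high and low libraries occurred in both groups. The log2 fold change was 1.117 (SE 0.81, 95% interval -0.88 to 3.11, limma adjusted p = 0.461). Leaving out 1 library moved it between 0.65, without cytarabine 3 or control 3, and 1.86, without cytarabine 1, and it was 1.68 without control 1. Nqo1, a quinone reductase, lies on chromosome 8 from 107388225 to 107403206, and was at 0.226, 1.41 and 2.11 FPKM in treated mice, while the control mice had 0.780, 0.538 and 0.386 FPKM. Cytarabine 1 held the lowest value and the other treated libraries the 2 highest. Its mean of 0.908 FPKM kept it out of the test. Without a minimum level, the log2 fold change was 0.42 (adjusted p = 0.598 from limma). Its mean reached 1 FPKM when cytarabine 1 or control 3 was left out, and the log2 fold change was then 0.81 or 0.34.

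Both genes were highest in the 3 high colon libraries, of which 1 was a control. Srxn1 was between 3.77 and 7.94 FPKM in the 3 high colon libraries and at most 0.880 FPKM in the others. Nqo1 was at least 0.780 FPKM in the high colon libraries and no more than 0.538 FPKM elsewhere. The summed level of 8 smooth muscle markers divided the libraries in the same way, at 1013, 1175 and 960 FPKM against at most 168 FPKM. Both genes are expressed in many epithelia, and the part of colon or muscle cells in their values was not tested. Within the low colon libraries, cytarabine 1 differed from control 2 and 3 by 0.19 on the log2 scale for Srxn1 and by -0.25 for Nqo1. Within the high colon libraries, cytarabine 2 and 3 differed from control 1 by 0.73 and 0.62. Colon transcripts were themselves more abundant in those cytarabine libraries than in control 1. With the colon and heart scores as covariates the log2 fold change of Srxn1 was 0.25 (adjusted p = 0.999 from limma). Among the 9 genes tested, Srxn1 was above in every high colon library and Txnrd1 and Gsr were below. Such a division was found for 34.4% of all genes, with 2015 genes above and 2015 below.

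**Figure D3:**
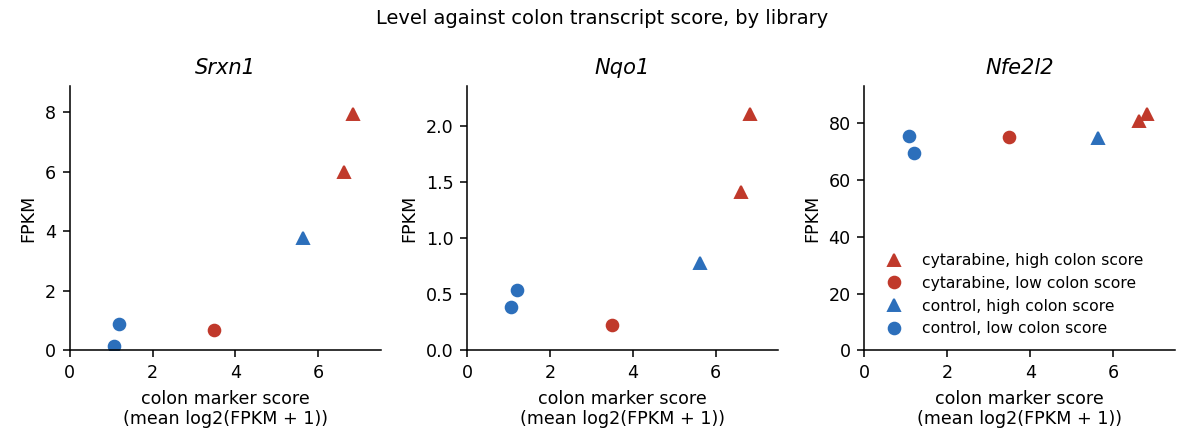
FPKM of Srxn1, Nqo1 and Nfe2l2 (linear axes from 0) against the mean log2(FPKM + 1) of 15 colon markers, 1 point per library. Srxn1 and Nqo1 are highest in the 3 libraries with a colon score above 5, of which 1 is a control, and Nfe2l2 stays between 69.7 and 83.2 FPKM in all libraries.

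The members also differed in their spread between libraries. Over the 6 libraries, the coefficient of variation was 5.72% for Gpx4, 6.27% for Nfe2l2, 7.08% for Gclc and 7.72% for Gclm. It was 79.1% for Nqo1 and 99.4% for Srxn1. In log2(FPKM + 1), Gpx4 was steadier than all but 7.29% of the genes tested and Nfe2l2 than all but 10.7%, while 94.1% were steadier than Srxn1. As a description over 6 libraries that share the colon and heart division, the gene most like Srxn1 among the 8795 genes that averaged 5 FPKM or more was Ppp1r14a (Pearson r = 0.999), an inhibitor of myosin phosphatase in smooth muscle. The most similar genes were Upf3b for Nfe2l2 (r = 0.997), Snrpc for Keap1 (r = 0.997), Ncoa2 for Txnrd1 (r = 0.998), Wibg for Gpx4 (r = 0.996) and Pi4k2a for Gsr (r = 0.994). They were Isg15 for Gclm (r = 0.986), Cnpy4 for Gclc (r = 0.977) and Eif4e3 for Hmox1 (r = 0.974). With 6 libraries many genes reach such values, and 645 had r above 0.9 with Srxn1.

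The 161 other genes of the pathway that were found, in 7 lists, gave a background for the 10. Of these, 142 were tested, 0 had an adjusted p under 0.05 from limma, 22 were higher and 16 lower with cytarabine at an unadjusted p under 0.05, and 104 did not pass it. That is 26.8% of the genes tested, beside 17.4% of all genes, and the groups did not overlap for 30.3%, beside 23.8% of all genes. With colon and heart scores as covariates 11 passed, and leaving out 1 library gave between 20, without cytarabine 3, and 71, without cytarabine 1. The directions were mixed in every list but 1, NADPH supply, in which 0 were higher and 2 lower of 17 tested, or 11.8%. The median log2 fold change of the 142 genes was 0.079, against -0.0015 for all genes. In the 3 high colon libraries 39 of the 142 were above all other libraries and 21 below, or 27.5% and 14.8%, where 17.2% of all genes were above and 17.2% below. Of the 12 neutrophil markers given above, 6 were lower in all treated libraries than in all controls, and the rest overlapped. Among the rest, Elane, Mpo and Camp were highest in cytarabine 1, at 81.7, 71.1 and 122.7 FPKM. The part of neutrophils in the values of the pathway genes was not tested.

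**Figure D4:**
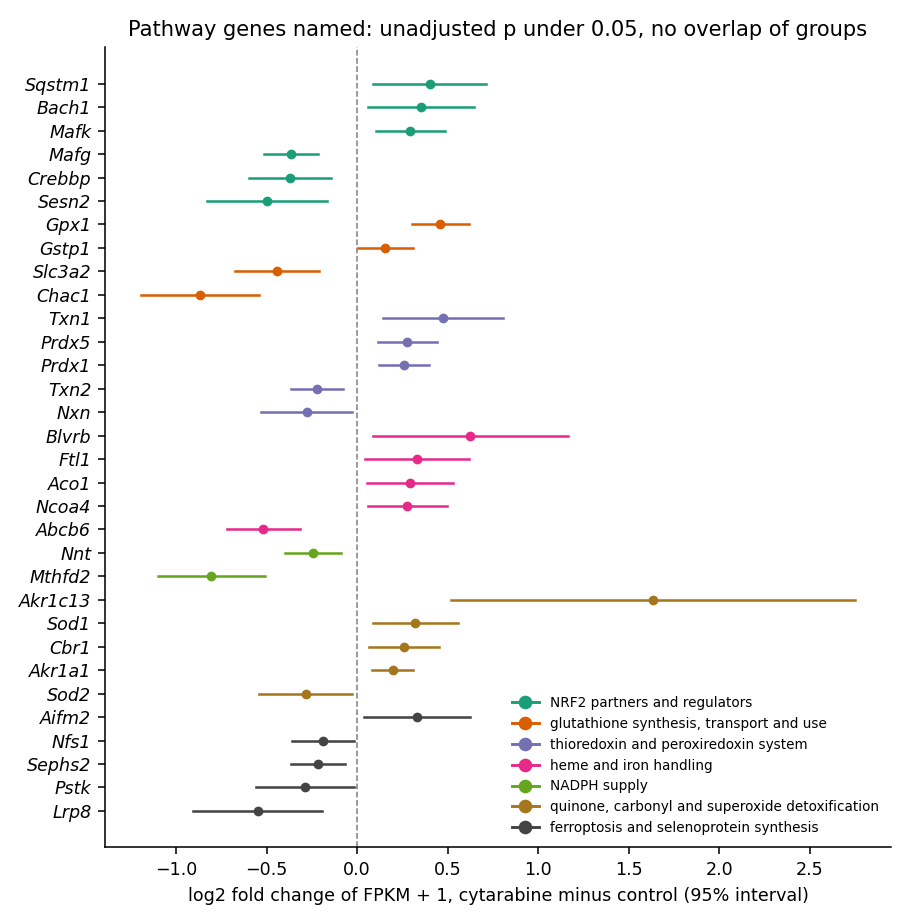
Log2 fold change of FPKM + 1, cytarabine minus control, with 95% intervals from limma, for the 32 pathway genes that had an unadjusted p under 0.05 and no overlap of the groups (at most 4 per list and direction), coloured by list. Akr1c13, at 1.63, has the largest value and the widest interval, and Chac1 and Mthfd2 are the lowest.

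Among 18 partners and regulators of NRF2, 3 were higher and 4 lower at an unadjusted p under 0.05. That is 38.9%, beside 17.4% of all genes tested. Most genes named from the lists were chosen for such a p and for groups that did not overlap. The separation of their groups is therefore not a further result, and exceptions are marked where they are named. Mafg, a small MAF partner, was at 14.003, 13.9 and 13.8 FPKM in the treated libraries, where controls gave 17.7, 17.9 and 18.9 FPKM, which is a log2 difference of -0.37 (adjusted p = 0.136 from limma). Mafk, another small MAF, went the other way, from a mean of 17.1 FPKM in controls to 21.2 FPKM with cytarabine (log2 fold change 0.29, adjusted p = 0.183 from limma). Bach1, which represses Hmox1 and other targets at the same elements, was at 5.16 against 3.82 FPKM. Here and below, such pairs are the mean of treated against the mean of control libraries. Sqstm1, which sequesters KEAP1, was at 99.3 against 74.6 FPKM. The log2 difference of Sqstm1 was 0.12 within the low colon and 0.58 within the high colon libraries. Sesn2 was lower, at 6.36 against 9.35 FPKM, and so was the coactivator Crebbp, at 7.93 against 10.6 FPKM. Bach2, a relative of Bach1, passed as lower with groups that overlapped.

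Of 37 tested genes of glutathione synthesis, transport and use, 5 were higher, 2 lower and 30 did not pass. The share that passed, 18.9%, was near the 17.4% of all genes. Gpx1, the abundant cytosolic glutathione peroxidase, was at 202, 230 and 213 FPKM after cytarabine against 156, 155 and 156 FPKM without it. The log2 fold change was 0.46 (SE 0.064, limma adjusted p = 0.131). Its log2 difference was 0.37 within the low colon and 0.50 within the high colon libraries. The transferase Gstp1 was at 74.7 against 66.9 FPKM, and may have shared reads with its near-identical neighbour Gstp2. Gstp2, Gstm1 and Gstt2 were the others that passed as higher, with groups that overlapped. Gstm1 was at 35.5, 33.0 and 12.04 FPKM in the 3 high colon libraries and at most 7.77 FPKM in the rest, and Gstp2 was also highest in those 3. Chac1, which degrades glutathione, was at 4.35, 6.03 and 4.92 FPKM in treated mice, while the control mice had 11.1, 9.15 and 10.1 FPKM, which is a log2 difference of -0.87 (SE 0.13, limma adjusted p = 0.131). Slc3a2, the heavy chain of the cystine importer and of other amino acid carriers, was at 89.3 against 122 FPKM. Its partner Slc7a11, named after its values were seen, averaged 12.5 ± 2.17 FPKM (SD, n = 3) after treatment and 13.98 ± 1.61 FPKM (SD, n = 3) in controls. Gpx2, a peroxidase of the gut lining also chosen after its values were seen, was at 2.74, 30.3 and 39.6 FPKM in the treated libraries, where controls gave 21.0, 0.28 and 0 FPKM, highest in the same 3 libraries as the colon transcripts.

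Of 18 tested genes of the thioredoxin and peroxiredoxin system, 4 were higher and 2 lower, or 33.3% beside 17.4% of all genes. Prdx1, a peroxiredoxin, was at 541, 493 and 532 FPKM after cytarabine against 435, 439 and 434 FPKM without it (log2 difference 0.26, SE 0.056, limma adjusted p = 0.154). Its relative Prdx5 was at 141 against 116 FPKM. Cytosolic thioredoxin, Txn1, was at 342 against 244 FPKM, and the mitochondrial form, Txn2, at 89.2 against 104 FPKM. Within the low colon libraries the log2 differences of Prdx1, Prdx5 and Txn1 were 0.31, 0.17 and 0.25. Within the high colon libraries they were 0.24, 0.36 and 0.51. Nxn, nucleoredoxin, was at 18.7 against 22.9 FPKM. Txnip, which binds thioredoxin, passed as higher with groups that overlapped, and was highest in the 3 high colon libraries, at 436, 356 and 138 FPKM against at most 121 FPKM.

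Of 16 tested genes of heme and iron handling, 4 were higher and 1 lower, or 31.25% beside 17.4% of all genes. Blvrb, a biliverdin reductase, was at 16.4 against 10.1 FPKM, and the ferritin light chain gene Ftl1 at 877 against 693 FPKM. Aco1, an iron-responsive RNA-binding protein, was at 16.5 against 13.3 FPKM, and Ncoa4, which delivers ferritin for degradation, at 51.5 against 42.2 FPKM. Within the low colon libraries the log2 differences of Blvrb, Ftl1, Aco1 and Ncoa4 were 0.35, 0.11, 0.090 and 0.16. They were larger within the high colon libraries, at 0.69, 0.41, 0.42 and 0.30. Abcb6, a porphyrin transporter, was at 33.5, 30.4 and 28.6 FPKM in treated mice, while the control mice had 41.7, 45.8 and 46.2 FPKM, which is a log2 difference of -0.52 (adjusted p = 0.135 from limma). Among the genes of NADPH supply, Mthfd2, a mitochondrial folate enzyme, was at 102, 86.5 and 77.4 FPKM in the treated libraries, where controls gave 169, 143 and 154 FPKM (log2 fold change -0.81, adjusted p = 0.131 from limma). The mitochondrial transhydrogenase Nnt was at 24.7 against 29.5 FPKM. G6pdx, the entry to the pentose phosphate pathway, named after its values were seen, was between 31.5 and 36.3 FPKM in all 6 libraries.

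Of 17 tested genes that detoxify quinones, carbonyls and superoxide, 5 were higher and 1 lower, or 35.3% beside 17.4% of all genes. Akr1a1, an aldehyde reductase, was at 435, 439 and 431 FPKM after cytarabine against 379, 381 and 380 FPKM without it (log2 difference 0.20, SE 0.045, limma adjusted p = 0.166). The cytosolic superoxide dismutase Sod1 was at 762 against 609 FPKM and the mitochondrial Sod2 at 26.0 against 31.8 FPKM. Cbr1, a carbonyl reductase, was at 68.0 against 56.7 FPKM. Aldh2, an aldehyde dehydrogenase, passed as higher with groups that overlapped, and was at 77.0, 77.7 and 35.7 FPKM in the high colon libraries against at most 32.1 FPKM. Akr1c13, of a multigene family in which reads can be divided between copies, was at 21.5, 48.1 and 64.1 FPKM in treated mice, while the control mice had 18.8, 8.95 and 11.1 FPKM. It was highest in the treated libraries of high colon score, and its log2 fold change was 1.63 (SE 0.45, limma adjusted p = 0.191). Of 19 tested genes of ferroptosis and selenoprotein synthesis, 1 was higher and 4 lower, or 26.3% beside the same 17.4%. Aifm2, which encodes the ferroptosis suppressor FSP1, was at 9.11 against 7.09 FPKM. Sephs2 and Pstk, which act in the synthesis of selenoproteins such as GPX4, were at 43.2 against 50.4 FPKM and at 15.2 against 18.7 FPKM. The selenoprotein P receptor Lrp8 was at 2.06 against 3.46 FPKM and the cysteine desulfurase Nfs1 at 36.2 against 41.4 FPKM.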

How the data were processed

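RNA-Seq values of 6 libraries, 3 from cytarabine-treated and 3 from control mice, were used, with groups and replicate numbers from the sample records. Libraries from a stranded mRNA kit were read from a single end. Per the submitters' processing notes, TopHat2 2.0.13, Bowtie2 2.2.3, SAMtools 0.1.19 and Cufflinks 2.2.1 were used with mm10, and the authors deposited 1 FPKM value for each gene. The gene annotation and the strand setting of Cufflinks are not given in the sources used here, so reads of overlapping antisense genes, such as Gm16754 at Keap1, could not be separated. Median-of-ratios factors of the deposited FPKM were 1.004 to 1.006 for all libraries, while the sums differed from 622197 to 654599. Depth was inferred from genes with 1 transcript in GENCODE M21 (GRCm38), assuming fragments of 200 bases, and read numbers are therefore approximate.

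The minimum for testing was an average of 1 FPKM over the 6 libraries, which Nqo1 did not reach. Tests were run on log2(FPKM + 1) with limma 3.58.1 in R 4.3.3 (trend, two-sided, Benjamini-Hochberg over all 11703 genes), and the step was tested on simulated data. Ratios were compared by exact permutation. Each library was 1 mouse, and limma sets each group difference against the spread between these mice, moderated over all genes tested. Members and lists were chosen with earlier results of these data known, and no set test was run. Named genes are the 10 members and, per list, up to 4 in each direction with the smallest p under 0.05 and no overlap of the groups. Of 162 pathway symbols 161 were found, 2 of them under older symbols. The alternatives were other pseudocounts, filters, scalings and eBayes settings, a replicate block, covariates and leaving out each library.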

Additional observations from a re-analysis of the deposited data

How the results depend on the processing

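The 10 genes had no adjusted p under 0.05 from limma under any alternative run, and the smallest was 0.112, for Nqo1 without cytarabine 1. At an unadjusted p under 0.05 the count of members was 1 with colon and heart scores as covariates (Hmox1), where 4.69% of all genes passed. It was 0 to 3 when one replicate at a time was left out, the 3 being without cytarabine 1, where 34.8% of all genes passed. Members without overlap of the groups numbered 2 with an equal sum per library (Gpx4 and Nfe2l2, where 24.0% of all genes did not overlap), 2 with quantile normalization (Gclc and Gpx4, 21.1%), and from 0 to 4 leaving out one replicate, the 4 being without cytarabine 1 (55.8%). All genes at an adjusted p under 0.05 from limma, 0 in the report (2038 at an unadjusted p under 0.05), were 1 with a pseudocount of 0.1, 2 without the trend, 1 with a robust trend and from 0 to 6 leaving out one replicate. At an unadjusted p under 0.05 they were 994 with the replicate block, 549 with the covariates and from 1176 to 4111 leaving out one replicate. Other pathway genes were 22 with the replicate block, 11 with the covariates and from 20 to 71 leaving out one replicate. Same-numbered libraries were different mice whose deviations from the group means correlated at -0.71, -0.25 and -0.59. These values gave no sign of pairing. They also carry the unequal colon transcripts, so they cannot show whether same-numbered libraries were handled together. The replicate block changed no call of a member.

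Values near 0 changed sign. Hmox1 had a log2 fold change of -0.017 with quantile normalization. With the covariates Keap1 had -0.056, Gpx4 -0.066 and Gsr 0.0075. Leaving out one replicate, Keap1 ranged from -0.064 to 0.12, Hmox1 from -0.072 to 0.20, Gclm from -0.019 to 0.11 and Txnrd1 from -0.0067 to 0.14. The log2 difference of the ratio of Keap1 to Nfe2l2 was 0.016 within the low colon libraries and ranged from -0.21 to 0.033 leaving out one replicate. The cause was not tested. The other 642 values of named genes kept their direction, and none passed an adjusted p of 0.05 from limma, as in the report. At an unadjusted p under 0.05, which chose them, 9 of the 32 named pathway genes remained with the covariates, 22 with the replicate block, 20 to 28 leaving out one replicate, and 29 to 32 under the other alternatives. Depth limits Nqo1 and Srxn1, for which 3 reads correspond to 0.118 to 0.193 and to 0.0611 to 0.0998 FPKM.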
